A study of Saccharomyces cerevisiae with 12 samples.

Results

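The a-specific genes of budding yeast, and the gene of the transcription factor that reads their promoters, are described across 4 strains. The 8 genes were chosen by name (MFA1, MFA2, STE2, STE6, BAR1, AGA2, ASG7 and MCM1) and were matched to systematic identifiers of the deposited table, which holds 6219 genes. RNA was counted in tup1(S649F) MATalpha (strain DY19306), WT MATalpha (DY3420), tup1(S649F) MATa (DY19304) and WT MATa (DY150), with 3 libraries of each. The mutant strains carry the substitution S649F in Tup1. All 4 strains are W303 Saccharomyces cerevisiae and share the markers ade2-1, can1-100, his3-11,15, trp1-1 and ura3-1 and a mutant LEU2 gene. Per the labels, cells were taken in log phase from a 30 °C rich medium with 2% dextrose. Each group is a single strain, and nothing in the labels says that its 3 libraries were grown separately. The p-values therefore measure only the spread between these samples, which may be technical.

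Haploid yeast has 2 mating types, a and alpha, and each makes its own pheromone and the receptor for the other's. The a-specific genes encode the products that only MATa cells need to mate. Their promoters bind Mcm1, a MADS-box factor that activates them in MATa cells. In MATalpha cells the alpha2 homeodomain protein binds beside Mcm1 at the same operator and brings in the corepressor Tup1-Cyc8, which keeps the genes silent. Tup1 is therefore the textbook repressor of this gene set, and the series title asks whether it also has a coactivator role. The genes encode the a-factor pheromone (MFA1 and MFA2), its exporter (STE6), the alpha-factor receptor (STE2), the secreted protease that degrades alpha-factor (BAR1), the adhesion subunit of a-agglutinin (AGA2) and a regulator of pheromone signalling (ASG7).

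The operators are shown because they are the feature that the 7 genes share in sequence. They were read from the R64 reference genome of strain S288C by RefSeq annotation, not from W303. A stretch of 22 letters with 13 fixed ones, GTANTTNCCNNNNNNGGNAATT, was drawn from these promoters themselves, so its presence in them is by construction. It holds the CC and GG of the Mcm1 site, and the outer letters belong to the alpha2 sites. The capitals mark the 22 letters, and each line reads 5′ to 3′ on the strand that carries them.
MFA1: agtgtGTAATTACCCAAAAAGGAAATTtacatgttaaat
MFA2: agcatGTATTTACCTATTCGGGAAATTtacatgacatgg
STE2: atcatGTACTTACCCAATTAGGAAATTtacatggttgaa
STE6: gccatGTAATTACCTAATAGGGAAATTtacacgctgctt
BAR1: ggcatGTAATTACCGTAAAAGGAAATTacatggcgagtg
AGA2: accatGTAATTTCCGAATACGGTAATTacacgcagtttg
ASG7: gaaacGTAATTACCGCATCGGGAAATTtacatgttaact

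The lines span chrIV:1384940-1384978 (MFA1, plus strand), chrXIV:352161-352199 (MFA2, plus), chrVI:82345-82383 (STE2, minus), chrXI:46471-46509 (STE6, minus), chrIX:322076-322114 (BAR1, plus), chrVII:437095-437133 (AGA2, minus) and chrX:101899-101937 (ASG7, minus). All lie between the coding sequence they precede and its nearest protein-coding neighbour. The motif is on the sense strand of the gene in 6 of the 7, and on the antisense strand for STE2. In BAR1 and AGA2 the antisense strand matches as well, 2 bases further along, since the operator is nearly a palindrome. Its first base lies 153 bases before the start codon in ASG7, 209 in STE6, 223 in STE2, 231 in MFA1, 248 in MFA2, 261 in BAR1 and 295 in AGA2.

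**Figure D1:**
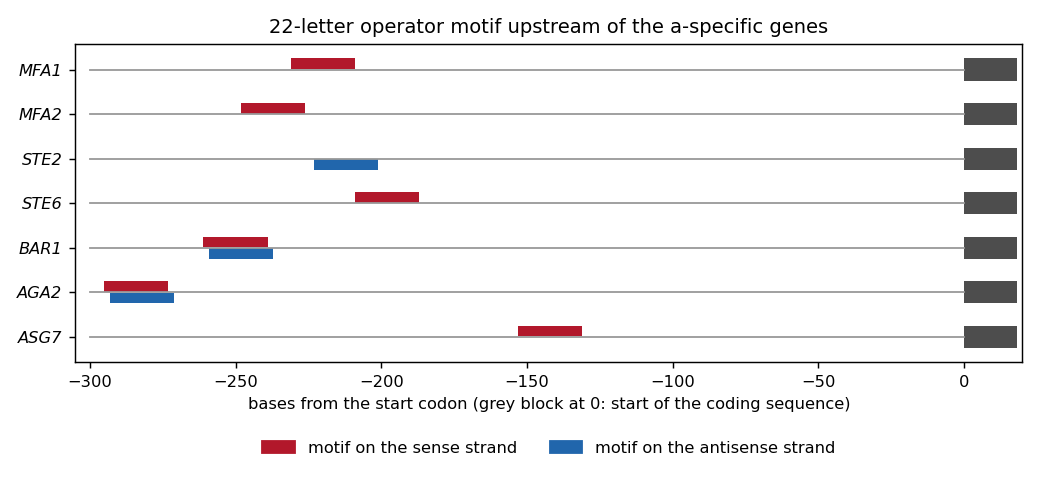
Position of the 22-letter motif in the 300 bases before the start codon of each a-specific gene. The x axis is in bases from the start codon, red blocks are matches on the sense strand and blue blocks on the antisense strand. All 7 genes hold a match, the nearest at 153 bases (ASG7) and the farthest at 295 bases (AGA2).

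The 300 bases before the STE2 start codon (chrVI:82280-82579, plus strand) show the setting of one operator, again with the 22 letters in capitals, here as the complement that the sense strand carries.
STE2 promoter: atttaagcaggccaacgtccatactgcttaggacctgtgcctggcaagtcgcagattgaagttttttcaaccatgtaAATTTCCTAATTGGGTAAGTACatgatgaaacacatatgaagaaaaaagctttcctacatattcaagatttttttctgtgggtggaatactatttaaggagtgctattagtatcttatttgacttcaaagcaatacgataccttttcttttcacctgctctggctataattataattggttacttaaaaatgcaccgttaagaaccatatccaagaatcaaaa

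Among windows of 300 bases before the start codon of 5765 nuclear protein-coding genes, 0.121% held the 22-letter motif on either strand, and these were the 7 a-specific genes. Its 13 fixed letters are those identical in these 7 promoters. A pattern made in this way was bound to match few other windows, so the share is not a test of specificity. The Mcm1 core alone, CCNNNNNNGG, was in 28.4% of windows, and the alpha2 site letters CATGTA were in 11.5% on either strand. The MCM1 window held none of the 3 motifs, which says only that these letters are not there. Windows with 1 of the 13 fixed letters changed were found for 8 genes, and with 2 changed for 42. Of the 8, 4 were higher and 2 lower in tup1 MATalpha than in WT MATalpha (log2 fold changes from -0.22 to 1.08), where 32.0% of all genes tested were called higher and 31.0% lower. Among them were replication genes known to be read by Mcm1 in the early cell cycle, namely CDC6 (-0.02, not called) and MCM7 (-0.22, lower). Of the 42, 15 were higher and 13 lower, from -0.996 to 3.40, shares near those of all genes.

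Library totals ran from 5657714 to 9300353 counts. The mating type labels were checked with HMRA1, the a1 gene, a copy of which is expressed from MAT in MATa cells. It had 0 counts in each of the 6 MATalpha libraries, mutant and WT, and was at least 58.0-fold lower in tup1 MATalpha than in tup1 MATa (floor of 3 counts over the group, counting error only). The alpha-specific receptor gene STE3 stood at 797 ± 110.4 CPM in tup1 MATalpha and at 0.978 ± 0.430 CPM in tup1 MATa (SD, n = 3 each). The a-specific transcripts of tup1 MATalpha were thus measured in libraries where HMRA1 RNA was not detectable at this depth. The library of tup1 MATa replicate 1 stood apart from replicates 2 and 3, with a chi-square per degree of freedom of 21.0 and 28.3, where replicates 2 and 3 gave 4.08. Pairs of tup1 MATalpha libraries gave 7.40 to 12.2, and pairs within the WT groups gave 1.40 to 2.68. Spread was thus larger in the mutant groups, while the fit shares 1 estimate of it over all 4 groups. Levels are given in CPM (counts scaled to TMM-adjusted library totals), which compare 1 gene between libraries. Genes are compared in CPM per kilobase of coding sequence, so their order depends on that length.

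The comparison of tup1 MATalpha with WT MATalpha shows the effect of the mutation where Tup1 normally keeps the a-specific genes silent. All 7 a-specific genes rose, by 4.20 (STE6) to 10.00 (MFA2) on the log2 scale. Among all genes tested, 32.0% were called higher in the same comparison (edgeR quasi-likelihood test, adjusted p under 0.05), 12.9% by at least 2-fold, and the median log2 fold change was -0.03. The median of the 7 was 7.03, which is the fitted value of ASG7 and rests on 2 counts in WT MATalpha, with BAR1 (6.89) next below it and MFA1 (9.61) next above. In RNA from whole cultures, more cells expressing a gene and more RNA per cell cannot be told apart.

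Both a-factor genes were near zero in WT MATalpha and abundant in the mutant. MFA2 (YNL145W, chrXIV:352414-352530), the more abundant of the a-factor precursors, stood at 804, 529 and 636 CPM in tup1 MATalpha, against 0.688, 0.421 and 0.742 CPM in WT MATalpha (log2 fold change 10.00 ± 0.23 SE, edgeR adjusted p = 5.68e-16). MFA1 (YDR461W, chrIV:1385176-1385286) had 776, 600 and 643 counts in tup1 MATalpha, against 1, 2 and 0 counts in WT MATalpha. The ratio for MFA1 was 876 (95% interval 299 to 4252, counting error only), and its fitted change of 9.61 became 10.50 without WT MATalpha replicate 2. The 111 and 117 bases of the coding sequences share no identical run longer than 11 bases, which limits how many reads could fit both genes.

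STE6 (YKL209C, chrXI:42423-46295), the transporter that exports a-factor, rose least. It stood at 324, 260.2 and 300.3 CPM in tup1 MATalpha, against 14.8, 16.4 and 16.9 CPM in WT MATalpha (4.20 ± 0.10 SE, adjusted p = 1.09e-17 by edgeR). Its WT MATalpha level per length, 4.15 ± 0.278 CPM per kilobase (SD, n = 3), was close to that of STE2 (4.22 ± 0.290) and below that of MFA2 (5.27 ± 1.47).

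STE2 (YFL026W, chrVI:82580-83875), the receptor through which MATa cells sense alpha-factor, stood at 701, 472 and 551 CPM in tup1 MATalpha, against 5.90, 5.33 and 5.19 CPM in WT MATalpha (6.70 ± 0.16 SE). BAR1 (YIL015W, chrIX:322342-324105), the protease that clears alpha-factor, stood at 439, 289 and 371 CPM in tup1 MATalpha, against 3.24, 2.94 and 2.97 CPM in WT MATalpha (6.89 ± 0.20 SE, edgeR adjusted p = 4.16e-13). For both genes every mutant library lay far above every WT MATalpha library.

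AGA2 (YGL032C, chrVII:436570-436833), which binds the partner agglutinin on MATalpha cells, had 1446, 1152 and 1232 counts in tup1 MATalpha, against 2, 0 and 3 in WT MATalpha (9.87 ± 0.35 SE, edgeR adjusted p = 2.84e-11). The ratio of AGA2 was 997 (95% interval 427 to 3073, counting error only), and without WT MATalpha replicate 3 its fitted change was 10.63. ASG7 (YJL170C, chrX:101150-101779), which acts on G protein signalling after mating, had 75, 86 and 81 counts in tup1 MATalpha, against 1, 1 and 0 in WT MATalpha. Its ratio was 158 (95% interval 43.1 to 1308, counting error only). It had the lowest mean of the 7 per length in all 4 groups, and its fitted interval was the widest of the 7. In WT MATalpha its rank cannot be told apart from those of MFA1 and AGA2, which also had few counts.

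**Figure D2:**
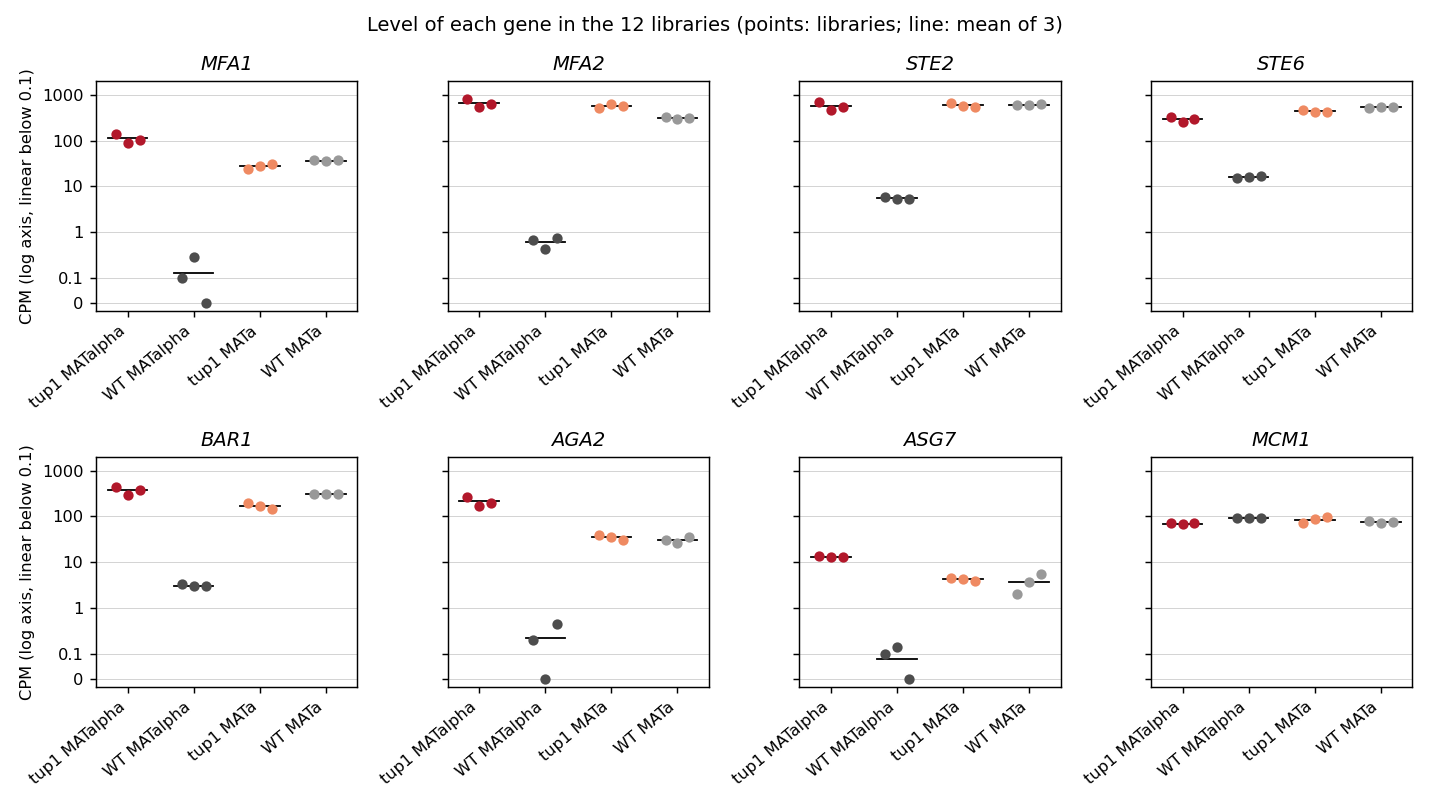
CPM of the 8 genes in each library, on a log axis that is linear below 0.1. Points are libraries and lines are means of 3. The 7 a-specific genes have their lowest libraries in WT MATalpha. In tup1 MATalpha STE6 lies below both MATa groups and AGA2, MFA1 and ASG7 lie above them, and MCM1 lies between 66.9 and 94.5 CPM in every library.

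Within tup1 MATalpha the a-specific genes varied together. Replicate 1 held the highest CPM of all 7 genes and replicate 2 the lowest of all 7. The order of the libraries was the same for other mating genes, among them SAG1 (6341, 4206 and 5339 CPM in replicates 1, 2 and 3) and FIG2 (1765, 976 and 1141 CPM). The coefficient of variation was 10.9% for STE6 and 20.2% to 25.0% for STE2, BAR1, MFA2, AGA2 and MFA1, but 4.41% for ASG7. In WT MATa it was 1.07% to 3.45% for the 5 genes BAR1, STE6, STE2, MFA1 and MFA2, but 15.3% for AGA2 and 47.1% for ASG7. Replicate 1 of tup1 MATalpha was also the library with the fewest counts, 5657714, and the part of depth in the spread was not tested.

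A second question is how far the mutant MATalpha cells reach the level of normal MATa cells. Setting tup1 MATalpha against WT MATa, a comparison in which mutation and mating type both differ, 4 a-specific genes were higher, 1 was lower and 2 were not called. In this comparison 31.9% of all genes were called higher and 29.5% lower.

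AGA2 was furthest above the normal MATa level. It stood at 265, 168 and 199.8 CPM in tup1 MATalpha and at 31.1, 25.7 and 35.1 CPM in WT MATa (6.88-fold, 2.78 ± 0.17 SE, edgeR adjusted p = 8.08e-09). MFA1 stood at 142, 87.7 and 104 CPM in tup1 MATalpha and at 37.0, 35.2 and 37.3 CPM in WT MATa (3.03-fold, edgeR adjusted p = 2.16e-07). No tup1 MATalpha library of either gene overlapped the WT MATa libraries. The same held for ASG7, MFA2 and STE6, and the share of all genes without overlap was not counted.

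ASG7 was 3.56-fold higher, with 13.7, 12.6 and 13.1 CPM in tup1 MATalpha and 2.03, 3.64 and 5.55 CPM in WT MATa (edgeR adjusted p = 9.45e-07). MFA2 was 2.08-fold higher than its WT MATa values of 323, 302 and 319 CPM (1.06 ± 0.11 SE, edgeR adjusted p = 5.54e-07). STE6 was the exception. Its tup1 MATalpha level was 0.555 times that of WT MATa, where it stood at 513, 539 and 539 CPM (-0.85 ± 0.08 SE, edgeR adjusted p = 9.57e-09).

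STE2 and BAR1 did not pass. STE2 in WT MATa stood at 609, 597 and 632 CPM, within the range of the tup1 MATalpha libraries (-0.09, 95% interval -0.32 to 0.14, edgeR adjusted p = 0.479). It was called lower without tup1 MATalpha replicate 1 (-0.26, edgeR adjusted p = 0.0183). BAR1 in WT MATa stood at 309, 302 and 306 CPM, again inside the tup1 MATalpha range (0.26, interval -0.0016 to 0.52, adjusted p = 0.0786 by edgeR). BAR1 was called higher without tup1 MATalpha replicate 2 (0.41, edgeR adjusted p = 0.000963) and, with all libraries kept, with a replicate block in the fit (0.25, edgeR adjusted p = 0.0343).

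Against tup1 MATa, which carries the same mutation, tup1 MATalpha cells had 4 a-specific genes higher and 1 lower, where 17.8% of all genes were called higher and 17.2% lower. AGA2 (2.59), MFA1 (2.00), ASG7 (1.65) and BAR1 (1.14) were higher and STE6 (-0.57) was lower. MFA2 stood at 0.20 (interval -0.04 to 0.44, edgeR adjusted p = 0.185), and was called higher without tup1 MATalpha replicate 2 (0.33, edgeR adjusted p = 0.0108). STE2 stood at -0.03 (-0.26 to 0.20, adjusted p = 0.88). The comparisons with WT MATa and with tup1 MATa share the tup1 MATalpha libraries.

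**Figure D3:**
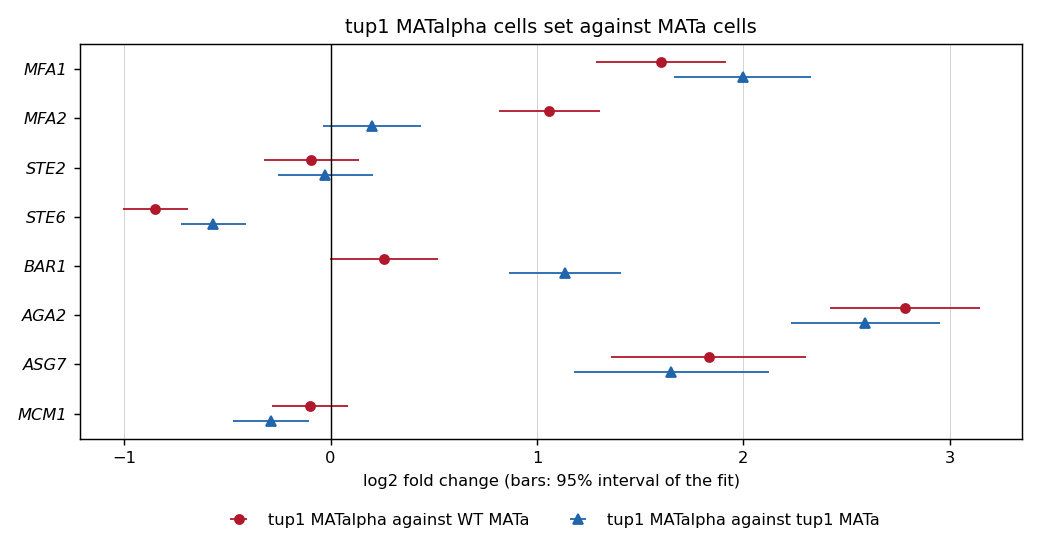
Log2 fold change of tup1 MATalpha cells against WT MATa (red circles) and against tup1 MATa (blue triangles) for the 8 genes, with 95% intervals of the fit. AGA2 lies farthest right at 2.78 and 2.59, STE2 lies at -0.09 and -0.03, and STE6 lies to the left at -0.85 and -0.57.

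The 7 genes were ordered by mean level per kilobase of coding sequence in each group. In tup1 MATalpha it was MFA2, MFA1, AGA2, STE2, BAR1, STE6 and ASG7, from 5608 ± 1184 to 20.9 ± 0.920 CPM per kilobase (SD, n = 3 each). In WT MATalpha it was MFA2, STE2, STE6, BAR1, MFA1, AGA2 and ASG7, from 5.27 ± 1.47 to 0.126 ± 0.114 CPM per kilobase, but MFA1, AGA2 and ASG7 rest on 3, 5 and 2 counts there and their ranks cannot be told apart. In tup1 MATa it was MFA2, STE2, MFA1, AGA2, STE6, BAR1 and ASG7, from 4877 ± 499 to 6.63 ± 0.574 CPM per kilobase. In WT MATa it was MFA2, STE2, MFA1, BAR1, STE6, AGA2 and ASG7, from 2688 ± 92.8 to 5.94 ± 2.79 CPM per kilobase. The summed mean level of the 7 genes was 2227 CPM in tup1 MATalpha, 25.6 in WT MATalpha, 1826 in tup1 MATa and 1834 in WT MATa. Coding sequences of MFA1 (111 bases), MFA2 (117) and AGA2 (264) are short, and the part of this divisor in the orders was not tested. In CPM, MFA1 of tup1 MATalpha (111) stood below AGA2 (211), STE6 (295), BAR1 (366) and STE2 (575), and above ASG7 only.

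The comparison of tup1 MATa with WT MATa asks whether Tup1 matters for the same genes where they are normally on. The effects were small and of both signs: 1 a-specific gene rose, 2 fell and 4 did not pass, where 24.7% of all genes were called higher and 16.7% lower. The median of the 7 was -0.07, against -0.01 over all genes.

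MFA2 rose, with 516, 632 and 564 CPM in tup1 MATa (0.86 ± 0.11 SE, edgeR adjusted p = 1.11e-05). BAR1 fell, with 191, 165 and 143 CPM in tup1 MATa, all below the WT MATa libraries (-0.88 ± 0.12 SE, edgeR adjusted p = 5.18e-05). STE6 fell less, with 462, 428 and 419 CPM in tup1 MATa (-0.28 ± 0.07 SE, edgeR adjusted p = 0.00513). Neither BAR1 nor STE6 overlapped between the groups, and nor did MFA2. The share of all genes without overlap in this comparison was not counted.

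MFA1 stood at 24.0, 27.8 and 31.4 CPM in tup1 MATa, below all 3 WT MATa libraries, but did not pass the test (-0.40 ± 0.17 SE, edgeR adjusted p = 0.0716). It was called lower with DESeq2 (-0.41, adjusted p = 0.0402), with upper-quartile scaling (-0.50, adjusted p = 0.026, where the median of all genes moved to -0.12) and when only the 6 MATa libraries were fitted (-0.39, adjusted p = 0.00979 by edgeR). Leaving out tup1 MATalpha replicate 1 or 2, libraries outside this comparison that share its estimate of spread, also gave a call (edgeR adjusted p = 0.0075 and 0.0228). The a-factor genes thus stood on opposite sides of their WT levels. AGA2 was at 38.5, 35.8 and 30.6 CPM (0.19, interval -0.22 to 0.60), ASG7 at 4.49, 4.25 and 3.78 CPM (0.18, -0.39 to 0.75) and STE2 at 656, 569 and 530.3 CPM (-0.07, -0.30 to 0.16), each overlapping WT MATa.

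The test of the difference itself, tup1 effect in MATalpha minus that in MATa, was called for all 7 a-specific genes, from 4.48 ± 0.12 for STE6 to 10.00 ± 0.44 for MFA1 (edgeR adjusted p from 3.79e-15 for STE6 to 1.94e-07 for ASG7). Of all genes 12.4% were called higher in this test.

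**Figure D4:**
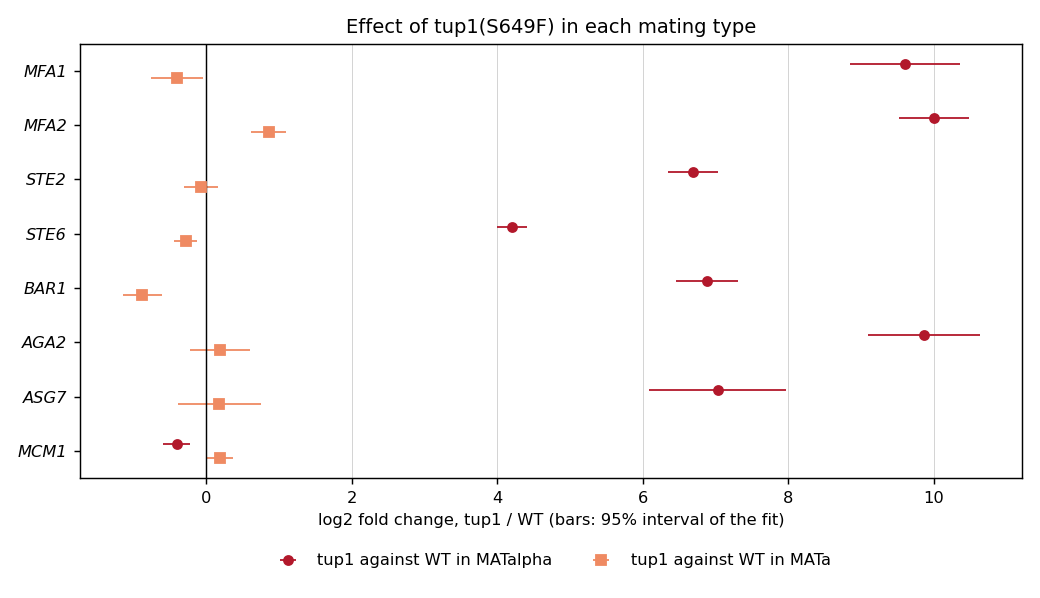
Log2 fold change of tup1 over WT in MATalpha (red circles) and in MATa (orange squares) for the 8 genes, with 95% intervals of the fit. The 7 a-specific genes lie between 4.20 and 10.00 in MATalpha and between -0.88 and 0.86 in MATa, and MCM1 lies at -0.41 and 0.19. Fitted values of MFA1 and ASG7 in MATalpha rest on 3 and 2 WT counts.

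WT MATalpha against WT MATa gives the normal mating type difference. All 7 a-specific genes were lower in WT MATalpha, where 0.371% of all genes were called lower and 0.531% higher. These shares stand for 21 and 30 genes, which became 571 and 520 when only the 6 WT libraries were fitted, and 220 and 179 without tup1 MATa replicate 1. STE6 stood at -5.05 ± 0.10 SE and MFA2 at -8.94 ± 0.23 SE. The fitted values of MFA1, AGA2 and ASG7 rest on few counts, and ASG7 (-5.20 ± 0.59 SE) became -4.80 without WT MATalpha replicate 3. MFA1 in WT MATalpha was 0.00342 times its WT MATa level (95% interval 0.000704 to 0.0100, counting error only). Of all genes, 9 (0.159%) were called at least 2-fold lower in WT MATalpha in the main fit, namely the 7 a-specific genes, HMRA1 and YNL146C-A.

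YNL146C-A, a small uncharacterised open reading frame, was the only one of the 9 outside the 7 that also rose at least 2-fold in tup1 MATalpha (7.02 ± 1.20 CPM, against 0.244 ± 0.0899 CPM in WT MATalpha, SD, n = 3). The log2 fold change was 4.71 (edgeR adjusted p = 3.11e-09), and -3.45 for WT MATalpha against WT MATa (edgeR adjusted p = 0.000174). It stood at 4.64 ± 0.764 CPM in tup1 MATa and 2.93 ± 0.978 CPM in WT MATa. It lies at chrXIV:351386-351580 on the minus strand, 580 bases to the left of the printed MFA2 operator, and its own window held no match to the 22 letters.

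YNL146C-A also had the profile most like that of the a-specific genes (Pearson r = 0.969 with the mean of their scaled log2 CPM over the 12 libraries). The next 4 non-members were VID28 (0.916), a subunit of the GID ubiquitin ligase, the acid phosphatase gene PHO11 (0.909), which has a near-identical copy, APA2 (0.893), a diadenosine polyphosphate phosphorylase, and the glucose transporter gene HXT2 (0.889). The 7 members themselves had r from 0.960 (STE6) to 0.994 (BAR1). Each member is part of that mean, so its r is raised by construction and cannot be set against those of non-members. These values describe likeness over libraries that share groups and carry no test. The changes of the 4 were small, from 0.66 (PHO11) to 0.89 (HXT2) in tup1 MATalpha against WT MATalpha.

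MCM1 (YMR043W, chrXIII:353871-354731) encodes the activator that all 7 promoters bind, and its own RNA differed far less between the groups. It stood at 71.4, 66.9 and 70.1 CPM in tup1 MATalpha, against 90.7, 93.2 and 92.0 CPM in WT MATalpha, and the groups did not overlap. The level fell to 0.755 times that of WT MATalpha (-0.41 ± 0.09 SE, edgeR adjusted p = 0.000443), where 31.0% of all genes were called lower. How many of all genes show no overlap, in this comparison or in that of the WT groups, was not counted. MCM1 thus fell in the comparison in which the a-specific genes rose.

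In MATa, MCM1 stood at 70.5, 89.3 and 94.5 CPM in the mutant, against 77.1, 70.3 and 75.6 CPM in WT, with overlap (0.19 ± 0.08 SE, edgeR adjusted p = 0.0833). Without tup1 MATa replicate 1, the library that stood apart, MCM1 was called higher (0.32, edgeR adjusted p = 0.000426). The mutation's effects on MCM1 differed between the mating types (interaction -0.59 ± 0.12 SE, edgeR adjusted p = 0.00149), where 11.5% of all genes were called lower.

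WT MATalpha had more MCM1 than WT MATa in every library (0.31 ± 0.08 SE), yet the difference was not called in the fit of all 12 libraries (edgeR adjusted p = 0.0968). It was called in the fit of the 6 WT libraries alone (0.31, edgeR adjusted p = 7.16e-05) and without tup1 MATa replicate 1 (0.31, edgeR adjusted p = 0.00269) or replicate 3 (0.31, edgeR adjusted p = 0.0456). In order of mean level the groups were WT MATalpha, tup1 MATa, WT MATa and tup1 MATalpha. Neighbours in that order were not told apart: WT MATalpha and tup1 MATa overlapped, tup1 MATa and WT MATa did not pass, and tup1 MATalpha and WT MATa stood at -0.10 (interval -0.28 to 0.08). Against tup1 MATa, tup1 MATalpha had less MCM1 (-0.29, edgeR adjusted p = 0.015), a call that was lost without tup1 MATa replicate 2 (-0.25, edgeR adjusted p = 0.0586) or replicate 3 (-0.20, edgeR adjusted p = 0.0963).

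**Figure D5:**
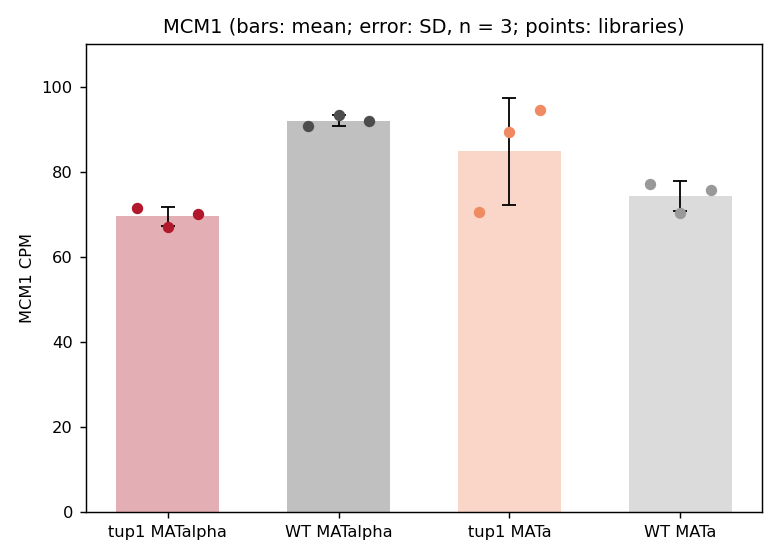
MCM1 level in CPM on a linear axis from 0. Bars are means, error bars are SD of 3 libraries and points are libraries. The 3 tup1 MATalpha libraries, between 66.9 and 71.4 CPM, lie below the 3 WT MATalpha libraries, between 90.7 and 93.2 CPM, and 1 tup1 MATa library lies below the other two.

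Mcm1 acts with partner proteins at other promoters. Of 11 genes for Tup1, Cyc8 and Mcm1 partners, 2 were higher and 4 lower in tup1 MATalpha than in WT MATalpha (median -0.14), beside 32.0% and 31.0% of all genes. YOX1, a repressor that binds beside Mcm1 in the cell cycle, rose (0.65, edgeR adjusted p = 6.69e-06). The forkhead genes FKH1 (-0.61) and FKH2 (-0.39) and NDD1 (-0.42), their coactivator in G2/M, fell. In tup1 MATa against WT MATa, 5 rose (median 0.12), where 24.7% of all genes rose and 16.7% fell, with YOX1 at 0.72, TUP1 at 0.44, ARG80, the paralog of MCM1, at 0.38 and CYC8 at 0.28. CYC8 did not pass under upper-quartile scaling (0.18, edgeR adjusted p = 0.0689) or without tup1 MATa replicate 2 (0.21, edgeR adjusted p = 0.0538).

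Known Mcm1 targets of the cell cycle had smaller changes than any a-specific gene in tup1 MATalpha against WT MATalpha, though the difference between the lists was not tested. Of 10 M/G1 targets, read by Mcm1 through early cell cycle boxes, 1 rose and 4 fell in tup1 MATalpha (median -0.07), where 32.0% of all genes rose and 31.0% fell. The call of 1 of the 4 that fell was lost with DESeq2, with a replicate block and in several fits without 1 library. CLN3, the G1 cyclin, rose (1.27 ± 0.09 SE, edgeR adjusted p = 1.75e-10), and MCM6, of the replicative helicase, fell (-0.45, edgeR adjusted p = 2.81e-06). In tup1 MATa 5 rose and 1 fell (median 0.15), where 24.7% of all genes rose and 16.7% fell, with CLN3 at 0.61 and SWI4, a G1/S transcription factor, at 0.31. CDC6 at 0.31 and MCM7 at 0.22 rose too, but neither passed under upper-quartile scaling (0.21 and 0.12). CDC6 also failed to pass without WT MATa replicate 3 (0.26, edgeR adjusted p = 0.057), and MCM7 without WT MATa replicate 2 (0.20, edgeR adjusted p = 0.0554).

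Of 10 G2/M genes read by Mcm1 with Fkh2, 1 rose and 5 fell in tup1 MATalpha (median -0.16), again beside 32.0% and 31.0% of all genes. The deacetylase gene HST3 was at -0.40, the bud site gene BUD4 at -0.31 and the polo kinase gene CDC5 at -0.26. In tup1 MATa, where 24.7% of all genes rose and 16.7% fell, 1 rose, the mitotic cyclin CLB1 (0.49), and 1 fell, its relative CLB2 (-0.27).

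The enzymes that mature a-factor, by farnesylation, proteolysis and methylation, are made in both mating types. Of 7 such genes, 3 rose in tup1 MATalpha (median 0.11), a share near the 32.0% of all genes. STE14, the carboxyl methyltransferase, rose most (1.16 ± 0.11 SE, edgeR adjusted p = 1.81e-08), and the protease genes STE24 (0.43) and AXL1 (0.27) rose less. Under upper-quartile scaling AXL1 did not pass (0.12, edgeR adjusted p = 0.178). In tup1 MATa STE14 (0.56) and STE24 (0.42) rose and AXL1 fell (-0.31), where 24.7% of all genes rose and 16.7% fell. The other 4 genes were not called in either mating type.

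Aga2 is held on the cell surface by Aga1. All 3 agglutinin genes listed with it rose in tup1 MATalpha, where 32.0% of all genes were called higher, 12.9% by at least 2-fold. AGA1 rose by 4.73 ± 0.23 SE (edgeR adjusted p = 1.07e-08), the related mating adhesin FIG2 by 5.93 ± 0.24 (adjusted p = 5.25e-10 by edgeR) and SAG1, the alpha-agglutinin that binds Aga2, by 2.99 ± 0.12. In tup1 MATa against WT MATa, where 24.7% of all genes were called higher and 16.7% lower, they did not pass. AGA1 stood at -0.14 (edgeR adjusted p = 0.762), FIG2 at 0.51 (0.148) and SAG1 at 0.20 (0.27).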

How the data were processed

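Stranded, ribosomal RNA-depleted libraries of 4 strains were counted per gene. Reads were handled with featureCounts 1.6.3 (Subread), STAR 2.7.3 and cutadapt 2.8 on builds sacCer3 and R64, per the submitters' processing notes. Neither the strand setting nor the handling of multiply mapped reads is given in the sources used here. The authors deposited raw counts for 6219 genes, of which 5811 matched RefSeq R64 identifiers. Levels in CPM and fold changes were computed here from the deposited counts.

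All 12 libraries entered 1 edgeR 4.0.16 fit (R 4.3.3, TMM, filterByExpr at a minimum count of 10, robust quasi-likelihood, 4 group means), which tested 5654 genes. All 8 members passed the filter. The a-specific genes are high in 3 of the 4 groups and passed through those. Contrasts were two-sided, with Benjamini-Hochberg adjustment over all genes tested and a threshold of 0.05. SE and 95% intervals come from the same fit. In simulated counts for tup1 against WT in MATa (5568 genes) the test found 76.1% of changes of 0.5 and 97.0% of changes of 1 on the log2 scale. For the interaction (5561 genes) it found 56.7% and 98.5%. The simulation changed few genes, none of low count, and gave all groups the same spread per gene. Replicates of the mutant strains varied more than those of WT, so these shares need not hold for the data. Intervals of ratios, given for MFA1, AGA2 and ASG7 with 3, 5 and 2 counts in WT MATalpha, are exact and cover counting error only. The bound for HMRA1 comes from an interval of the same kind.

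The members and lists were chosen with earlier results of these data known. Named list genes are those called, at most 4 a list by size of change, and the 5 non-members most like the a-specific profile. The result of 1 listed gene is not reported here. The 22-letter motif and the genes beside the members were chosen after the values were seen. No column was left unmapped. Alternatives were RLE and upper-quartile scaling, no filter, DESeq2 1.42.0, a replicate block, fits of only the groups compared, and leaving out each library.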

Additional observations from a re-analysis of the deposited data

Results flagged for a closer look

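The effect of the mutation differed between the mating types for all 8 genes, by the interaction term of the edgeR fit (effect in MATalpha minus effect in MATa, log2 scale). Of all genes tested, 12.4% were called higher and 11.5% lower by this term. The interaction was 10.00 for MFA1 (adjusted p = 7.64e-10), 9.14 for MFA2 (adjusted p = 5.71e-13) and 9.67 for AGA2 (adjusted p = 1.55e-08). It was 7.76 for BAR1 (adjusted p = 1.94e-11), 6.85 for ASG7 (adjusted p = 1.94e-07), 6.76 for STE2 (adjusted p = 1.42e-13) and 4.48 for STE6 (adjusted p = 3.79e-15). The sign was opposite for MCM1, at -0.59 (adjusted p = 0.00149). The values for MFA1, AGA2 and ASG7 are fitted to 3, 5 and 2 counts in WT MATalpha. MFA1 became 10.90 without WT MATalpha replicate 2, and AGA2 became 10.44 without replicate 3. With 3 libraries a group, no library was removed from the main fit as an outlier, though tup1 MATa replicate 1 stood apart from the others of its group.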

How the results depend on the processing

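All 7 a-specific genes were called higher in tup1 MATalpha against WT MATalpha, lower in WT MATalpha against WT MATa, and different in the interaction, under every alternative run. MCM1 was called lower in tup1 MATalpha against WT MATalpha in each of them as well (-0.43 to -0.38 when leaving out 1 library). Numbers of genes called over the whole table moved more, and the cause was not tested. Upper-quartile scaling moved the median of all genes to -0.12 in tup1 MATa against WT MATa, to -0.18 in tup1 MATalpha against WT MATalpha and to -0.14 in tup1 MATalpha against WT MATa. It gave 1778 lower genes in MATa, against 947. For WT MATalpha against WT MATa, the main counts of 30 higher and 21 lower became 520 and 571 in a fit of the 6 WT libraries, 19 higher with the replicate block, and 35 lower with DESeq2. The fit of the tup1 libraries gave 538 lower genes in tup1 MATalpha against tup1 MATa, against 975.

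Leaving out 1 library gave 617 to 1034 lower genes in MATa, 480 to 998 lower genes in the interaction, and 11 to 179 higher and 11 to 220 lower genes in WT MATalpha against WT MATa. The counts of 998, 179 and 220 came without tup1 MATa replicate 1, and 617 without WT MATa replicate 1. Of the 8 members, these fits called 1 to 2 higher in MATa, 0 to 1 higher in WT MATalpha against WT MATa, 1 to 2 lower in tup1 MATalpha against tup1 MATa and 1 to 2 lower in tup1 MATalpha against WT MATa. The fit of only the 2 groups called 1 member, MCM1, higher in WT MATalpha, and 1 in place of 2 lower in tup1 MATalpha against tup1 MATa. Upper-quartile scaling called 2 lower in tup1 MATalpha against WT MATa, MCM1 (-0.23, adjusted p = 0.0361) beside STE6. Uncalled values changed sign among these fits, for ASG7 in MATa (-0.12 to 0.57, negative without WT MATa replicate 1), for YNL146W in MATalpha (-0.12 to 0.073, positive without WT MATalpha replicate 1 or tup1 MATalpha replicate 3), for STE2 in tup1 MATalpha against tup1 MATa (-0.19 to 0.093, positive without tup1 MATa replicate 1 or tup1 MATalpha replicate 2) and for STE2 in tup1 MATalpha against WT MATa (-0.26 to 0.034, positive without tup1 MATalpha replicate 2).

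The replicate numbers pair nothing in the labels, and only 1 of 18 same-numbered pairs had deviations correlated over 0.1 (median -0.02). With the replicate block, BAR1 was called higher in tup1 MATalpha against WT MATa (0.25, adjusted p = 0.0343), and no other call of a member changed. Depth limits MFA1, AGA2 and ASG7 in WT MATalpha, which have 3, 5 and 2 counts.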

Other observations

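Genes beside the a-specific genes were looked at after their values were seen. Of 13 tested protein-coding neighbours, 7 were higher and 3 lower in tup1 MATalpha against WT MATalpha, where 32.0% and 31.0% of all genes were. Their log2 fold changes ran from -0.83 to 3.10. In WT MATalpha against WT MATa 1 was higher and 2 were lower, where 0.531% and 0.371% of all genes were.

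These 3 lie beside different members. TOH1, 255 bases downstream of ASG7 and on the same strand, was lower in WT MATalpha (-0.69, edgeR adjusted p = 0.00102) and rose in tup1 MATalpha (2.06, edgeR adjusted p = 5.34e-12). GYP8, 667 bases upstream of STE2, was lower in WT MATalpha (-0.89, edgeR adjusted p = 0.00186) and rose in tup1 MATalpha (0.70, edgeR adjusted p = 0.000516). YNL146W, 396 bases upstream of MFA2, was higher in WT MATalpha (1.57, edgeR adjusted p = 0.000456) and stood at -0.02 in tup1 MATalpha against WT MATalpha. CMI8, 237 bases beyond the end of MFA1 on the other strand, stood at -1.17 in WT MATalpha (edgeR adjusted p = 0.0825) and rose in tup1 MATalpha (1.93, edgeR adjusted p = 7.1e-06). CMI8 was called lower in WT MATalpha when only the WT libraries were fitted (-1.17, edgeR adjusted p = 0.00883). The same call came without tup1 MATa replicate 1 (-1.17, edgeR adjusted p = 0.0225). Which genes are called at least 2-fold lower in WT MATalpha thus depends on the fit. None of the members overlaps an annotated gene.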
